A study of Mus musculus with 4 samples.

Results

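The 48 genes described here encode the machinery that licenses replication origins, copies DNA and supplies deoxynucleotides, together with a few genes that accompany S phase. They were taken by the gene symbol of the array platform from a list chosen with earlier results of these data known. All 48 were found among the 18193 genes that the array names with 1 symbol. Each gene is represented by the probe set, a group of short oligonucleotides read out as 1 intensity, that had the highest mean over the arrays on the log2(intensity + 16) scale. All 48 means lay above the median of all probe sets (an intensity of 16.9), a level that 11392 genes reached, and these 11392 genes are the background for every share given below.

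RNA came from mouse intestinal organoids, epithelial cultures grown in Matrigel, and was hybridised to 4 Affymetrix arrays. The 4 groups, with 1 array each, were Tacc3 wt/wt at day 4, Tacc3 fl/fl at day 4, Tacc3 wt/wt at day 6 and Tacc3 fl/fl at day 6. Cultures of all groups received 4OHT (4-hydroxytamoxifen) for 24 hours to recombine Apc, which encodes the tumour suppressor that limits Wnt signalling. In the fl/fl groups the treatment was also to recombine Tacc3, which encodes a spindle protein. The sample descriptions call day 4 organoids normal and day 6 organoids Apc-deficient, whereas the series text has 4OHT recombine Apc before either day, so the Apc state of an array is not settled by the labels. The labels do not name the Cre driver or say how many mice or cultures an array pools. Since each group is a single array, differences carry no replicate error, and a gene is counted as higher or lower where it differs at least 2-fold (1 on the log2 scale). In bulk RNA, fewer cells in S phase and less RNA per cell cannot be told apart.

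At day 4 Tacc3 itself read 184 (wt/wt) and 59.8 (fl/fl), and at day 6 it read 167 and 49.7, so both fl/fl arrays were the low ones. Apc read 27.9 and 53.5 at day 4 and 122 and 150 at day 6 (log2 differences of 1.65 and 1.25), higher at the day that the descriptions call Apc-deficient; where its probe set lies relative to the recombined part is not given in the sources used here. All 10 epithelial markers looked at (Epcam, Cdh1, Vil1, keratins, Cdx genes, Cldn7) lay above the background level, while none of 6 endothelial and 3 of 10 mesenchymal markers did. The summed intensity of the mesenchymal markers was between 127 and 219 per array, and that of the endothelial markers between 42.9 and 70.9. Of 7 immune markers measured, 4 passed that level, and the sum of 1218 to 2963 was mostly Lyz2 (1136 to 2857); Ptprc, the pan-leukocyte marker, read at most 6.77.

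A replication origin is licensed in G1, when the origin recognition complex, CDC6 and CDT1 load the MCM2-7 helicase as an inactive double ring. In S phase the helicase is activated by CDC45 and the GINS complex, the primase and polymerases copy both strands behind it, and geminin (Gmnn) blocks CDT1 so that origins are not licensed again. In the intestinal crypt these genes are active in the proliferating stem and transit-amplifying cells and are switched off as cells differentiate, and many of them are targets of the E2F transcription factors.

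Spellings of the E2F recognition sequence were looked for in the promoters. RefSeq promoter windows of the GRCm38.p6 build, from 250 bases before to 50 after a start site, were listed for 40 of the 48 genes, in 49 windows. They were searched on both strands for the spellings TTTCCCGC, TTTCGCGC, TTTGCCGC and TTTGGCGC; these can overlap each other. A spelling was found in 15 of the 49 windows (30.6%), against 2.26% of all 32851 windows of the same length. Among the 8610 windows whose GC content reached the members' median of 61.3%, the share was 4.33%. By gene, a spelling was found in 15 of the 40 (37.5%), against 4.78% of the 9232 genes above the background level with a listed window. The windows below are shown because 6 of the 15 genes with a match are licensing genes, and Mcm3, Mcm5, Mcm6 and Mcm7 each hold at least 2 spellings; the others are members named below. Capitals mark the spellings, the letters run 5′ to 3′ on the strand of the gene, and a spelling read on the other strand appears reversed and complemented.
Mcm6, whole window (chr1:128359656-128359955, minus strand): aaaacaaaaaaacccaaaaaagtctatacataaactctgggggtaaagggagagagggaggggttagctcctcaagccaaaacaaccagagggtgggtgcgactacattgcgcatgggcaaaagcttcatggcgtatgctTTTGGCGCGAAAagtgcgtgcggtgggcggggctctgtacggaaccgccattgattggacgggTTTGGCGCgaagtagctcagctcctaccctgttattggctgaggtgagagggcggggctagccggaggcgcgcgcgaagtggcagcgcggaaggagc
Mcm5, part of chr8:75109259-75109558, plus strand: ccaagaacTTTCGCGCCAAAacgtccag
Mcm3, part of chr1:20820263-20820562, minus strand: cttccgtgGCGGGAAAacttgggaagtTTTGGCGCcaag
Mcm7, upstream part of chr5:138171834-138172133, minus strand: ttcgaaccGCGGGAAAcagggtgt
Mcm7, part of the same window just after the start site: tgacgacgTTTCGCGCcaatttcg
Cdc6, part of chr11:98907901-98908200, plus strand: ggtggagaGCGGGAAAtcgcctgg
Cdt1, part of chr8:122567765-122568064, plus strand: actaccttTTTGGCGCcatggcgc
Rfc3, part of chr5:151651159-151651458, minus strand: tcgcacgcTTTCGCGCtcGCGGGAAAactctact
Pola1, part of chrX:93632106-93632405, minus strand: atcacaggGCGCCAAAtgcactcc
Hells, part of chr19:38930740-38931039, plus strand: caccgggtTTTCCCGCgaaagaga
Pcna, whole window with none of these spellings (chr2:132253131-132253430, minus strand): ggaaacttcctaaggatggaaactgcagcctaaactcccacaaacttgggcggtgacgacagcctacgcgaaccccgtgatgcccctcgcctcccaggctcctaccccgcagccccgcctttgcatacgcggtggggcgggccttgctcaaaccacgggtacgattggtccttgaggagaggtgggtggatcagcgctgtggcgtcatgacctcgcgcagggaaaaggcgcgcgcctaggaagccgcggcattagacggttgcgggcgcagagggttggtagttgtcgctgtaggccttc

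In Mcm5 and Mcm6 a pair of spellings overlaps, with its first base at -153 and -110 from the start site. The other listed genes with a spelling were Orc1, Orc3, Gins3, Lig1, Pold1 and Uhrf1. The 15 members with a spelling had median day differences (day 6 minus day 4, wt/wt and then fl/fl throughout) of 1.22 and 0.66, and the 25 listed members without one had 0.73 and 0.58; 4 of the 15 and 5 of the 25 were 2-fold higher at day 6 in both genotypes. Among genes that are no members, 12.0% of 426 with a spelling and 9.37% of 8766 without one were 2-fold higher in both. A match describes these letters only, and the members' windows were richer in GC (median 61.3%) than all windows (52.7%). The shorter CCAAT box, read by the factor NF-Y, was found in 57.1% of the members' windows and 37.4% of all windows, and the TTTGAA element of mitotic promoters in 10.2% and 17.9%.

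Between the days, most of the replication genes were higher at day 6. In wt/wt organoids 19 of 48 members (background 18.3%) were 2-fold higher at day 6 and 2 (background 2.97%) were lower. In fl/fl organoids 13 (background 12.2%) were higher and 1 (background 2.9%) was lower. In both genotypes, 10 members (20.8%) were 2-fold higher, against 9.37% of all genes, and Rfc1 alone was 2-fold lower. Over all 18193 genes, dim ones included, 11.5% and 7.69% were 2-fold higher at day 6. Both day 6 arrays lay above both day 4 arrays for 36 members (background 39.7%) and below them for 6 (background 32.8%). The members' median differences were 0.74 and 0.63, while the median of all genes was 0.17 and 0.00. The members thus stood 0.57 and 0.63 above the median gene. This distance was 0.45 to 0.72 under the alternative settings tried, of which centring and the filter could not change it. Above the median gene lay 39 and 38 of the 48.

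**Figure D1:**
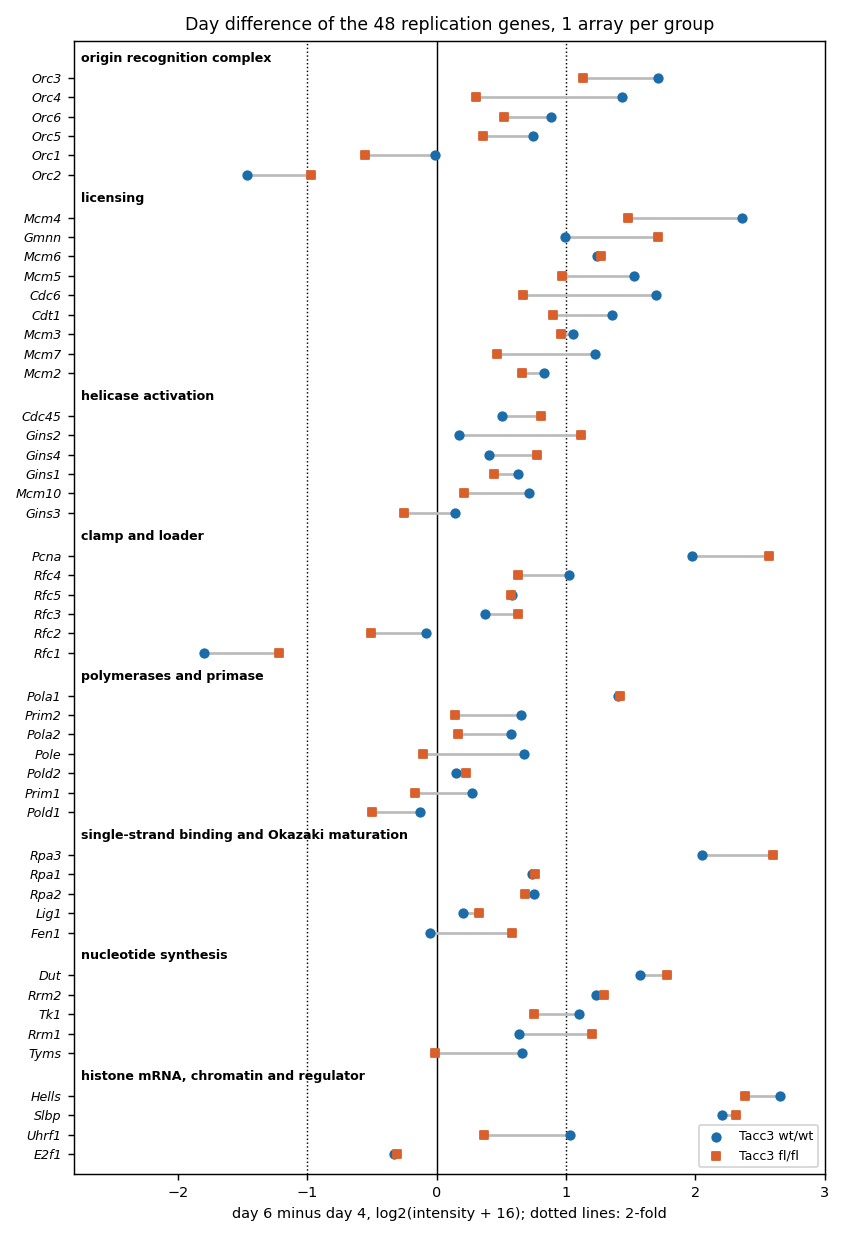
Day 6 minus day 4 of each of the 48 genes on the log2(intensity + 16) scale (x axis), in Tacc3 wt/wt (blue circles) and Tacc3 fl/fl organoids (orange squares), grouped by role; dotted lines mark 2-fold. All 9 licensing genes lie right of 0 in both genotypes, and Rfc1, Orc2, Orc1, Rfc2, Pold1 and E2f1 lie left of it in both.

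The day 6 arrays also differed from the day 4 arrays in cell type markers and in control probe sets. The summed intensity of 7 intestinal stem cell markers was 1950 and 2049 at day 4 and 10251 and 6221 at day 6 (3 of 7 at least 2-fold higher in both genotypes). Most of the day 6 sums was Olfm4 (6534 and 3478). Sox9 was lower at day 6 (-0.06 and -0.37), as was Rnf43 in fl/fl organoids (-0.22). The summed intensity of 9 enterocyte markers was 1248 and 1379 against 5725 and 9289 (5 of 9 higher in both). That of 6 goblet cell markers was 20016 and 29000 against 12547 and 12998 (0 of 6 higher, 3 of 6 lower in fl/fl organoids). That of 4 Paneth cell markers was 44484 and 60695 against 40989 and 37570 (0 of 4 higher, 1 of 4 lower in fl/fl organoids). For Actb the ratio of 5′ over 3′ signal was 0.0610 and 0.0627 at day 4 and 0.180 and 0.261 at day 6, and for Gapdh 0.208 and 0.142 against 0.411 and 0.524. The median of the bacterial hybridization controls was 3627 and 2525 at day 4 and 1258 and 1021 at day 6. The part of these markers and controls in the day differences was not tested. Scaling the arrays to the hybridization controls put 46 (wt/wt) and 48 (fl/fl) members above 0, so that those named below as lower at day 6 turned higher in fl/fl organoids, and moved the median gene to 1.37 and 1.09. Against that background, 45 and 40 members were 2-fold higher, where 65.6% and 54.2% of all genes were.

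As a supplement to the size rule, an additive limma model of genotype and day was fitted to all genes, which takes the arrays of 1 day as replicates and has 1 residual degree of freedom. At a limma adjusted p under 0.05 it called 24 members higher at day 6 (background 22.8%) and 2 lower (background 7.15%). The lower ones were Orc2 and Rfc1, with limma adjusted p of 0.010 and 0.0065. The lowest values were 0.0033 for Hells, 0.0036 for Slbp and 0.0040 for Pcna and Rpa3. For genotype it called 0 members and 0 genes, and 4 members and 5.35% of all genes had an unadjusted p under 0.05. Tacc3, with genotype differences of -1.40 at day 4 and -1.47 at day 6, was among the genes not called. The 0 members therefore do not show that the genotypes were equal.

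The origin recognition complex marks origins and loads the helicase. Orc3 read 34.0 and 49.5 at day 4 and 148 and 128 at day 6 (the wt/wt array is given first throughout), differences of 1.71 and 1.13. Orc4 read 29.2 and 71.9 at day 4 against 106 and 92.8 at day 6, so that its day differences were 1.43 and 0.31. On these probe sets the day 6 arrays were the high ones for both genes, and the wt/wt array of day 4 was the lowest of all. Dimmer sets disagreed: those of Orc3 had -0.04 and 0.51 and -0.35 and 0.02. Orc4 had a set with 1.21 and 0.60 and another, 1423337_at, that read 61.7 and 39.9 at day 4 and 34.8 and 49.5 at day 6 (-0.61 and 0.23), with the wt/wt array of day 4 the highest. Orc2 went the other way, with 185 and 131 at day 4 and 56.6 and 58.9 at day 6 (-1.47 and -0.97). Its remaining probe sets read 93.1, 103, 78.8 and 82.7, and 29.1, 35.9, 42.0 and 60.5, in the order wt/wt day 4, fl/fl day 4, wt/wt day 6 and fl/fl day 6, so the large difference rests on the brightest one. Orc1, an ATPase subunit, read 68.2, 73.8, 67.2 and 45.1 in the same order, and only the fl/fl array of day 6 stood low. A dimmer Orc1 probe set had differences of 0.94 and 0.29. Orc5 and Orc6 had day differences between 0.36 and 0.89. The complex as a group had medians of 0.82 and 0.33, with 2 and 1 of 6 members 2-fold higher.

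The licensing genes were the group with the most members 2-fold higher in wt/wt organoids, 7 of 9 (background 18.3%). In fl/fl organoids 3 of 9 were so (background 12.2%), and all 9 had both day 6 arrays above both day 4 arrays. The group medians were 1.24 and 0.96 (0.85 and 0.76 after centring, 0.88 and 0.69 after quantile normalization). After centring, Mcm3 (0.67) and Mcm6 (0.85) were no longer 2-fold higher in wt/wt organoids, so the count of 7 depends on the scaling. Mcm4, a subunit of the MCM2-7 helicase, read 116 and 131 at day 4 and 663 and 393 at day 6 (2.36 and 1.48). Its second probe set read 76.9 and 121 against 525 and 754 (2.54 and 2.49). Both probe sets place day 6 above day 4, but they order the genotypes of day 6 differently. Mcm6 read 294 and 386 at day 4 and 717 and 952 at day 6, differences of 1.24 and 1.27, and a dimmer set had 0.94 and 0.49. Gmnn, the inhibitor of CDT1, read 168 and 144 against 348 and 507 (0.99 and 1.71), with fl/fl organoids of day 6 highest. Cdc6, the loading ATPase, read 18.3 and 52.6 at day 4 and 95.5 and 92.7 at day 6 (1.70 and 0.66). Its wt/wt level at day 4 was near the background intensity of 16.9, and the other 3 arrays stood well above it. Mcm2, Mcm3, Mcm5, Mcm7 and Cdt1 had differences of 0.83 to 1.53 in wt/wt and 0.46 to 0.97 in fl/fl organoids. Their dimmer sets ranged from -0.25 (Mcm5) to 2.60 (Cdt1) in wt/wt organoids, apart from those of Mcm3 given below.

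**Figure D2:**
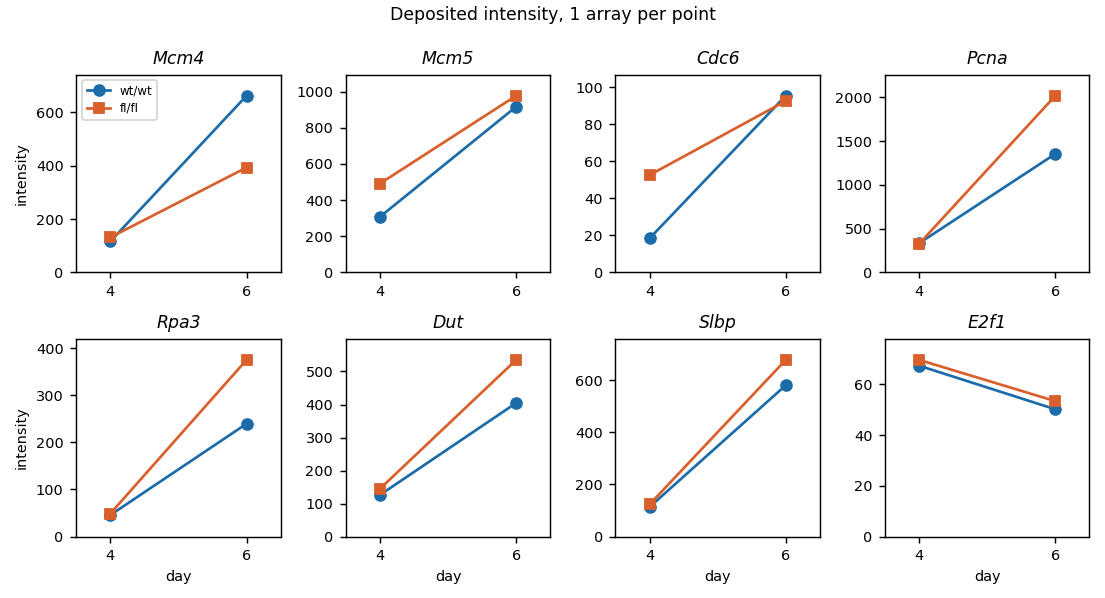
Deposited intensity (y axis, linear, from 0) at day 4 and day 6 (x axis) of 8 of the genes in Tacc3 wt/wt (blue) and Tacc3 fl/fl (orange) organoids, 1 array per point. Mcm4, Pcna, Rpa3, Dut and Slbp are at least 2-fold higher at day 6 in both genotypes, Cdc6 starts from 18.3 and 52.6, and E2f1 goes from 67.4 and 69.6 to 50.2 and 53.4.

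The genes of helicase activation differed less. None of the 6 was 2-fold higher in wt/wt organoids and Gins2 alone was in fl/fl organoids, with medians of 0.45 and 0.61 (0.07 and 0.40 after centring, 0.05 and 0.36 after quantile normalization). Gins2, a GINS subunit, read 62.8, 58.0 and 72.9 on the other arrays and 145 in fl/fl organoids at day 6, so 1 array stood apart from 3. Its second probe set did the same (day differences of 0.50 and 1.40). Cdc45 read 61.5 and 56.8 at day 4 and 94.1 and 111 at day 6 (0.51 and 0.81), and its dimmer set had -0.11 and 0.14. Gins4 read 98.6 and 115 against 136 and 208 (0.40 and 0.77). Mcm10, Gins1 and Gins3 stayed between -0.25 and 0.71 in both genotypes.

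Pcna, the sliding clamp that tethers polymerases to DNA, was among the members with the largest differences, while its loader RFC was not uniform. Pcna read 333 and 326 at day 4 and 1354 and 2018 at day 6, a 3.93-fold and a 5.94-fold difference (1.97 and 2.57). The day 4 arrays were nearly equal and both day 6 arrays stood far above them. Rfc1, the large loader subunit, read 527 and 415 at day 4 and 140.0 and 169 at day 6 (-1.80 and -1.22). Its dimmer probe sets, 1418342_at and 1449050_at, had day differences of 0.45 and -0.12 and of 0.65 and 0.22, so they did not share the lower reading at day 6. Rfc4 read 79.8 and 128 against 179 and 207 (1.02 and 0.63), and a dimmer set had 1.55 and 1.81. Rfc2 read 476 and 548 at day 4 and 449 and 380.2 at day 6 (-0.08 and -0.51), and its 3 probe sets above the background level were all lower at day 6. Rfc3 and Rfc5 had differences of 0.37 to 0.63; a dimmer Rfc3 probe set had 1.87 and 1.68. The medians of the clamp and loader group were 0.48 and 0.60 (0.09 and 0.39 after centring, 0.02 and 0.34 after quantile normalization).

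Of the 7 polymerase and primase genes, 1 was 2-fold higher on the probe set used. This was Pola1, the catalytic subunit of polymerase alpha, with 51.7 and 49.4 at day 4 and 163 and 159 at day 6 (1.40 and 1.42). Within a day the genotypes differed by -0.05 and -0.03. Pola2, its regulatory subunit, read 89.4 and 131 against 141 and 149 (0.58 and 0.16). Prim2, a primase subunit, read 45.3 and 63.0 against 80.2 and 71.0 (0.65 and 0.14). Pold1, the catalytic subunit of polymerase delta, read 882 and 824 at day 4 and 804 and 579 at day 6 (-0.13 and -0.50), lower at day 6 on both of its probe sets. A dimmer Prim2 set, 1445474_at, had -0.44 and -0.08 and another had 0.91 and 0.66. Pold2, Pole and Prim1 lay between -0.17 and 0.68, but the dimmer set of Prim1, the catalytic primase subunit, read 157 and 243 against 548 and 419.8 (1.70 and 0.75). The medians of the group were 0.58 and 0.14, and the fl/fl median was -0.07 both after quantile normalization and after centring each array.

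Among the single-strand binding and Okazaki fragment genes, Rpa3 alone was 2-fold higher on the probe set used. Rpa3, the small RPA subunit, read 45.6 and 48.6 at day 4 and 239 and 375 at day 6 (2.05 and 2.60), a 4.15-fold and a 6.05-fold difference. Rpa1, the large subunit, read 362 and 488 against 613 and 839 (0.73 and 0.76). Rpa2 read 107 and 162 against 190.3 and 270.1 (0.75 and 0.68). For all 3 subunits the day 6 arrays were above the day 4 arrays. Dimmer sets of Rpa1 (1.04 and 1.66) and Rpa2 (1.02 and 1.60) were 2-fold higher too. The flap endonuclease Fen1 and the DNA ligase Lig1 had differences between -0.05 and 0.58, although a dimmer Fen1 probe set had 1.44 and 1.72.

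The nucleotide synthesis genes had medians of 1.10 and 1.20, and 3 of 5 were 2-fold higher in each genotype. Dut, which removes dUTP, read 126 and 145 at day 4 and 405 and 535 at day 6 (1.57 and 1.78), whereas its dimmer set 1419269_at read 23.7 and 27.3 against 26.7 and 30.2 (0.10 and 0.09). Rrm2, the cell-cycle regulated subunit of ribonucleotide reductase, read 126 and 153 against 318 and 398 (1.23 and 1.29), and its remaining probe sets had 2.42 and 2.17 and 0.75 and 0.95. Tk1, thymidine kinase, read 65.4 and 88.7 against 158 and 161 (1.10 and 0.75). For all 3 genes the day 6 arrays lay above the day 4 arrays. Rrm1, the large reductase subunit, had 0.64 and 1.20, and 0.64 and 1.92 on its dimmer set. Tyms, thymidylate synthase, had 0.66 and -0.01, and its probe set was the dimmest of the group at 25.5 to 56.4.

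Slbp, which binds histone mRNA in S phase, and Hells, a chromatin remodeller needed for DNA methylation, had some of the largest differences of all members. Slbp read 113 and 123 at day 4 and 580.1 and 677 at day 6 (2.21 and 2.32). A second Slbp probe set, 1430058_at, had 0.20 and -0.32. Uhrf1, which brings the maintenance methyltransferase to new DNA, read 197 and 299.9 against 418 and 392 (1.03 and 0.37), and its dimmer set had 0.50 and 0.45. E2f1, a transcription factor that drives many of these genes, went the other way, with 67.4 and 69.6 at day 4 and 50.2 and 53.4 at day 6 (-0.33 and -0.30), and all 3 of its probe sets were lower at day 6.

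Hells was measured by 3 probe sets that disagree. On 1417541_at the intensities were 38.9 and 78.4 at day 4 and 329 and 476 at day 6 (2.65 and 2.38). On 1430139_at they were 195 and 181 at day 4 and 144 and 110.1 at day 6 (-0.40 and -0.65). On 1453361_at they were 19.3 and 28.3 at day 4 and 76.7 and 31.4 at day 6, so the wt/wt array of day 6 alone stood high (1.39 and 0.10). The means of the first and second differ by little on the log2 scale (7.43 and 7.41), and the second became the brighter one with pseudocount 1 and after quantile normalization. Which transcripts or exons each probe set reads is not given in the sources used here. The direction of Hells between the days therefore depends on the probe set, in both genotypes.

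**Figure D3:**
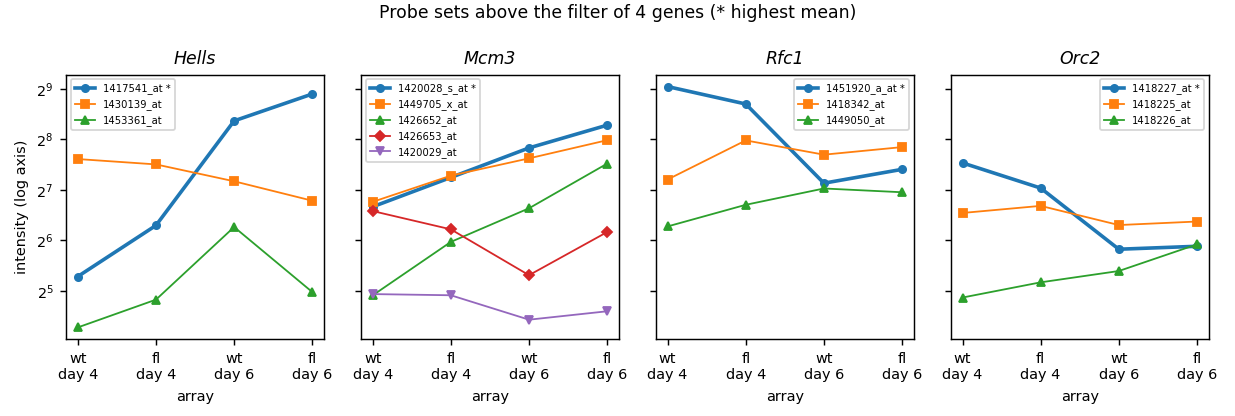
Intensity (y axis, log scale) of every probe set above the background level of Hells, Mcm3, Rfc1 and Orc2 on the 4 arrays (x axis; lines join the values of 1 probe set, thick for the brightest). For Hells 1 probe set goes from 38.9 to 329 and another from 195 to 144 between the wt/wt arrays.

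The same check over all members shows how far the choice of probe set matters. The 48 genes had 108 probe sets, 94 of them above the background level, and 31 genes had at least 2 such sets. All were higher at day 6 in both genotypes for 14 of the 31 genes and all lower for 3, and the remaining 14 were mixed. Mcm3 was the only gene with 1 set 2-fold higher and another 2-fold lower at day 6 in the same genotype, 1426652_at at 1.32 and 1426653_at at -1.004 in wt/wt organoids (1.34 and -0.04 in fl/fl). The sets of 10 genes had opposite signs and lay at least 2-fold apart in 1 genotype or both. Such disagreement was not counted over all genes, so whether it is more or less common among the members is not known. Of all 94 probe sets, 23.4% were 2-fold higher in both genotypes, against 9.57% of all 19225 probe sets above that level. The 46 sets that did not represent a gene had medians of 0.58 and 0.47, with 12 of them 2-fold higher in both.

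Across the 48 genes the day differences of wt/wt and fl/fl organoids, which share no array, correlated at r = 0.83 (Spearman's rho 0.76), close to the r = 0.80 over all 11392 genes; genes are not independent replicates. The members' median percentile among the levels of all genes was 64.3 and 64.5 at day 4 and 70.8 and 75.6 at day 6.

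**Figure D4:**
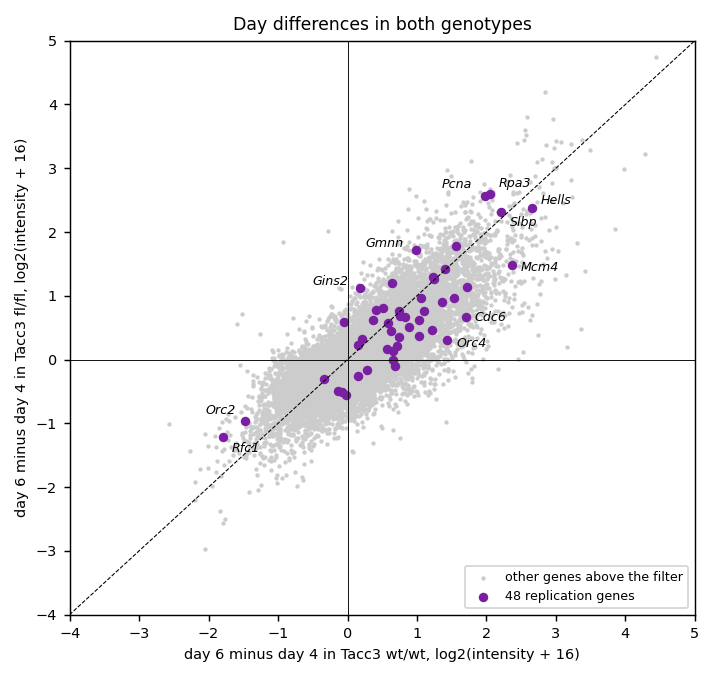
Day 6 minus day 4 in Tacc3 wt/wt (x axis) against Tacc3 fl/fl organoids (y axis), both on the log2(intensity + 16) scale, for the 48 genes (purple) over the other genes above the background level (grey); the dashed line marks equal differences. Pcna, Rpa3, Gmnn and Gins2 lie above the line and Mcm4, Cdc6 and Orc4 below it.

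Between the genotypes no member differed 2-fold on either day. At day 4, 0 of 48 were higher (background 1.38%) or lower (background 0.105%) in fl/fl organoids, and at day 6 again 0 were higher (background 0.211%) or lower (background 0.571%). The members' medians were 0.22 at day 4 and 0.07 at day 6, next to 0.15 and 0.05 for all genes, and quantile normalization took the day 4 median to -0.02. Higher at day 4 and lower at day 6, by any amount, were 15 members (background 28.5%). Across the members the day 4 and day 6 differences, which share no array, correlated at r = -0.04. The members with the largest mean genotype difference were Hells (0.78 and 0.51), Rpa2 (0.54 and 0.47) and Rfc5, a clamp loader subunit that read 105 and 154 at day 4 and 166 and 237 at day 6 (0.49 and 0.48). Rfc5 and Rpa2 were thus higher on the fl/fl array of both days, whereas the second Hells probe set was lower (-0.10 and -0.34).

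The role groups differed in how the genotype difference went from day 4 to day 6. The median of the licensing genes was 0.49 at day 4 (0.27 after centring, 0.92 with scaling to the hybridization controls). At day 6 this median was 0.03 (-0.003 after centring, 0.40 with that scaling, 0.28 without x_at and s_at probe sets). That of the origin recognition genes went from 0.27 to -0.15, the latter turning to 0.13 with scaling to the hybridization controls. That of the polymerases and primase went from 0.18 (-0.03 after centring, -0.06 after quantile normalization) to -0.14 (0.12 with scaling to the controls). That of the RPA and Okazaki genes went from 0.07 (-0.14 after centring, -0.02 after quantile normalization) to 0.47, and all 5 were above 0 at day 6. Expressed as the genotype-by-day shift (the fl/fl day difference minus the wt/wt one), the medians were -0.46 for licensing, -0.46 for origin recognition and -0.41 for polymerases, next to 0.12 for RPA and Okazaki genes and 0.12 for clamp and loader; the median gene had -0.09. Under the other settings tried, the licensing median lay between -0.47 and -0.10, the origin recognition median between -0.57 and -0.25 and the polymerase median between -0.55 and -0.23, and those of the RPA group (-0.07) and of the clamp group (-0.04) each turned negative under 1 setting. These medians rest on 1 array per group and 5 to 9 genes, and the difference between role groups was not tested.

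**Figure D5:**
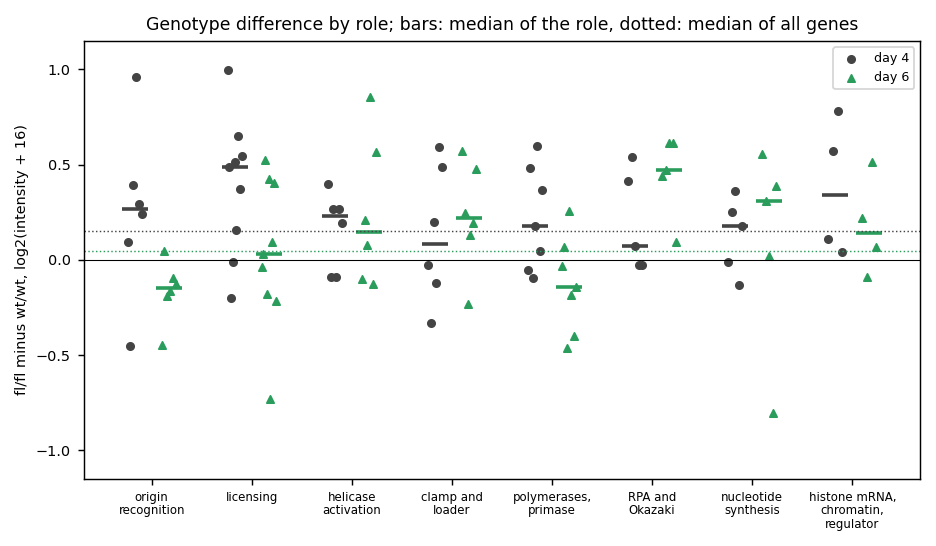
Difference between Tacc3 fl/fl and wt/wt organoids on the log2(intensity + 16) scale (y axis) at day 4 (grey circles) and day 6 (green triangles) for the genes of each role (x axis); bars are medians of a role and dotted lines those of all genes. Origin recognition, licensing and polymerase medians are lower at day 6 than at day 4, and no point reaches 2-fold.

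The largest shifts were those of Orc4 (-1.13), Cdc6 (-1.04) and Gins2 (0.94). Shifts of at least 2-fold towards a smaller fl/fl day difference were found in 2 members and in 4.1% of all genes, and in the other direction in 0 members and 0.65%. In Orc4 and Cdc6 the wt/wt array of day 4 was the one that stood low on the probe set used. The remaining sets of Orc4 gave shifts of -0.61 and 0.84, so the sign of its shift depends on the probe set, while Cdc6 had 1 set above the background level. In Gins2 the fl/fl array of day 6 was the one that stood high. Mcm4 had a shift of -0.89 on the probe set used and day differences of 2.54 and 2.49 on the other.

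Chosen with earlier results of these data known, 5 lists hold further genes of replication and of the G1/S transition and none of the 48. Their genes were compared between the days. Of 77 such genes above the background level, 19 were 2-fold higher at day 6 in both genotypes and 0 were 2-fold lower in both, next to 9.37% and 1.35% of all genes. Their medians were 0.62 and 0.54, and by list they ranged from 0.19 and 0.37 for other polymerase, loader and helicase genes to 0.83 and 0.63 for E2F, RB and cyclin genes. Of 12 regulators of origin firing, 2 were 2-fold higher in both, Topbp1, a scaffold of helicase activation (2.71 and 1.94), and Tipin, of the fork protection complex (1.61 and 1.44). Timeless (-0.76 and -0.42) and Recql4 (-0.18 and -0.49) of the same list were lower at day 6 in both genotypes, by less than 2-fold. Of 15 other polymerase, loader and helicase genes 3 were 2-fold higher in both, including Top2a, the topoisomerase that untangles chromosomes (1.81 and 2.17). Lower in both genotypes were Pole3 (-0.93 and -0.76), Chtf18 (-0.44 and -0.86) and Dna2 (-0.99 in wt/wt and 2-fold lower in fl/fl organoids). Of 7 replication-coupled chromatin genes 2 were 2-fold higher in both, Asf1a (1.28 and 1.29) and Cdca7 (2.47 and 2.63), which works with HELLS, while Chaf1b was lower (-0.26 and -0.33). Cdc7, the kinase that triggers firing, read 20.6 and 57.7 at day 4 and 109 and 100.0 at day 6, the same order of arrays as Cdc6.

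Of 20 other nucleotide synthesis genes 6 were 2-fold higher in both genotypes, among them Ppat (1.69 and 2.31) and Pfas (1.92 and 1.07) of purine synthesis. Of 23 genes of the E2F, RB and G1/S cyclin list 6 were, including the E2F partner Tfdp1 (2.05 and 1.87), the repressors E2f7 (1.37 and 1.44) and E2f8 (1.29 and 1.29) and the cyclin Ccne2 (1.17 and 1.35). The D-type cyclins Ccnd1 (-0.56 and -0.58) and Ccnd2 (-0.58 and -0.43) were not, nor was Ccne1 (-0.69 and -0.12). Mitosis genes, listed for comparison, had medians of 1.01 and 0.91, with 10 of 23 2-fold higher in both, above the 0.74 and 0.63 of the replication genes; the difference was not tested.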

How the data were processed

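The deposited table holds 1 linear intensity for each of 45101 probe sets on each of 4 arrays, as its values show; how the authors summarised and normalized them is not given in the sources used here. Per the labels' protocols, biotinylated cRNA was made from 100 ng of total RNA with a 3′ in vitro transcription kit. Intensities were analysed as log2(intensity + 16) with no further scaling, so differences of dim genes are understated. The platform table names 34945 probe sets with 1 gene, and 34741 were matched by Entrez ID to the RefSeq table of GRCm38.p6; probe sets of several genes (932) and controls were left out. Precision is limited by the number of arrays, since a single array per group allows no replicate check. The additive fit used limma 3.58.1 with Benjamini-Hochberg adjustment over 11392 genes, and was tested on simulated data. Values on every array are given for the 3 members of each role group with the largest mean day difference and any lower at day 6 in both genotypes, the 3 with the largest genotype difference and shift, and every Hells probe set; other genes were named after their values were seen. The members and lists were chosen with earlier results of these data known. The alternatives were pseudocounts of 1 and 64, centring, quantile normalization, scaling to the hybridization controls, averaging all probe sets of a gene, no x_at or s_at probe sets, and the filter.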

Additional observations from a re-analysis of the deposited data

Results flagged for a closer look

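For 2 members the genotype difference had opposite signs at the 2 days with a shift of at least 2-fold, and this difference was not tested. A negative shift of that size, whatever the signs of the genotype differences, was found in 4.1% of all genes. The 2 of 48 members are thus near the share of all genes. Orc4 had a genotype-by-day shift of -1.13, with genotype differences of 0.96 at day 4 and -0.16 at day 6. Cdc6 had one of -1.04, with 0.998 and -0.037, so its genotypes hardly differed at day 6. Both read lowest in wt/wt organoids at day 4 (29.2 and 18.3) on the probe set used. Another Orc4 probe set, 1423337_at, read highest there (61.7) and had a shift of 0.84, the opposite sign, and a further one had -0.61.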

How the results depend on the processing

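The 48 genes kept a positive median day difference in both genotypes under every setting tried, while the counts past 2-fold moved. In wt/wt organoids 12 members were 2-fold higher at day 6 with pseudocount 64, 11 after centring each array, 10 after quantile normalization and 45 with scaling to the hybridization controls. In fl/fl organoids 8 members were 2-fold higher after quantile normalization and 40 with scaling to the controls, where again most genes were. The share of all genes after quantile normalization is not given here. In both genotypes 6 were so after quantile normalization, 16 without the x_at and s_at sets and 40 with scaling to the controls (background 51.0%). Lower at day 6 in fl/fl organoids were 2 members with pseudocount 1 (background 4.7%), 2 after centring (background 5.94%) and 2 after quantile normalization. With scaling to the controls or with the mean over probe sets, 0 were lower in either genotype.

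The median day differences were 0.57 and 0.48 with pseudocount 64, 0.35 and 0.42 after centring, 0.33 and 0.34 after quantile normalization and 2.06 and 1.81 with scaling to the controls. Centring and quantile normalization moved the median gene to between -0.22 and -0.12. Hells reversed with pseudocount 1 (-0.44 and -0.71) and after quantile normalization (-0.89 and -0.87), because another of its probe sets then had the highest mean. Rfc1 in fl/fl organoids reversed with scaling to the controls (0.013).

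Between the genotypes, members 2-fold higher in fl/fl organoids at day 4 numbered 2 with pseudocount 1, 1 after quantile normalization, 6 with scaling to the controls and 1 without the x_at and s_at sets. At day 6, 1 was higher with scaling to the controls and 1 was lower with pseudocount 1. With pseudocount 1 the share of all genes 2-fold higher at day 4 was close to that of the members. Each count of 1 rests on a single gene. The shares of all genes under the remaining settings are not given here. These counts therefore do not show a genotype difference particular to the members. The day 4 median was 0.0074 after centring, -0.015 after quantile normalization and 0.63 with scaling to the controls, and the day 6 median was 0.38 with the latter. The limma fit called 12 members higher without the filter, where it called 1437 of 18193 genes higher. After quantile normalization it called 15 members higher and 5 lower, next to 2032 genes higher and 2243 lower of 11407. Apart from Hells, the cause of these changes was not tested. Without an array a group is empty, so leaving out replicates was not possible. No paired analysis was possible because each group has 1 array and no replicate numbers link samples beyond that; the limma fit compares the days with genotype as a term.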
